A study of Mus musculus with 12 samples.

Results

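Nuclear receptors are transcription factors, many of them switched by a steroid, a vitamin derivative or another small lipid. Of 49 nuclear receptor genes looked up by name on a mouse whole-genome array of 27670 genes, 8 are described here: Nr4a1, Nr4a2, Nr4a3, Nr2f6, Nr3c1, Rara, Rxra and Vdr. Each was read from the probes that the array design names for it, 12 in all, and the brightest probe stands for the gene. Of the 8 genes, 7 were taken by name, and Nr2f6 was chosen by its measured values, because its response to LPS differed between the genotypes on these same arrays, so its values are given as a description with no test.

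The arrays hold RNA of splenic B cells from C57BL/6 mice in which the B-lineage transcription factor gene Ebf1 carried loxP sites on both alleles (Ebf1fl/flRERTCre, called fl/fl here) or on 1 allele (Ebf1+/flRERTCre, called +/fl, the heterozygote control), always with RERT-Cre, a recombinase that tamoxifen turns on. All mice, controls included, received 3 mg of tamoxifen-citrate on each of 4 days and were killed on day 10. The 4 groups of 3 arrays were LPS-treated fl/fl, LPS-treated +/fl, resting fl/fl and resting +/fl cells. LPS is a bacterial ligand of the receptor TLR4 that drives B cells to grow and divide, and its dose and time are not given in the sources used here. Cells were sorted as B220+AA4.1- or also as CD21lo, without a statement of which sample passed which gate. Both genotypes carry at least 1 floxed allele and Cre, so no array shows a B cell with Ebf1 intact on both alleles and no Cre, and loss of Ebf1 was not checked here. Whether the 3 replicates of a group are separate animals is not stated, so the tests weigh differences only against the variation among these RNA samples, part of which may be technical.

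A nuclear receptor binds DNA through a zinc-finger domain and recruits corepressors or coactivators through its ligand-binding domain. The NR4A receptors have no known natural ligand of the classical kind, and their amount is set mainly by transcription: they are immediate-early genes, induced within a short time by antigen receptor signalling, and Nr4a1 is widely used as a readout of B cell receptor signalling. Nr2f6 is an orphan receptor of the COUP-TF family, known in T cells as a repressor of cytokine genes. Nr3c1 encodes the glucocorticoid receptor, which waits in the cytoplasm on Hsp90 chaperones until it binds hormone. Rara (a retinoic acid receptor) and Vdr (the vitamin D receptor) bind DNA as heterodimers with an RXR such as Rxra.

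The stretches upstream of the start sites of the NR4A genes and of Nr2f6 are shown because the NR4A genes read together on 1 array and Nr2f6 was the member chosen for its pattern. They are RefSeq sequences on GRCm38.p6, the 250 bases just before the start, 5′ to 3′ on the gene's strand. In the 3 NR4A sequences the capitals mark TGACG or its reverse complement, the half-site of the cAMP response element, and in Nr2f6 they mark a CArG box, the site of serum response factor.
Nr4a1, chr15:101266596-101266845, plus strand: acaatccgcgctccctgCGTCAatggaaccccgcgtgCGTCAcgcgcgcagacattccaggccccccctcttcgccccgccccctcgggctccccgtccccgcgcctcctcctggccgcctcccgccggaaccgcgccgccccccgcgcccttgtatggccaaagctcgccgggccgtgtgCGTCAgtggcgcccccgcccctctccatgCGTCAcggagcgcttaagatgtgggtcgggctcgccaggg
Nr4a2, chr2:57124004-57124253, minus strand: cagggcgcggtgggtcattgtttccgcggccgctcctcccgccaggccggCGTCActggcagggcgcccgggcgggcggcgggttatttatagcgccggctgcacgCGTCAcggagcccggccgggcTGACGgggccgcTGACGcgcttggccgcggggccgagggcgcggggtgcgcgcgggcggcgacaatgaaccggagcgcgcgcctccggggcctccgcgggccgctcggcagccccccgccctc
Nr4a3, chr4:48045055-48045304, plus strand: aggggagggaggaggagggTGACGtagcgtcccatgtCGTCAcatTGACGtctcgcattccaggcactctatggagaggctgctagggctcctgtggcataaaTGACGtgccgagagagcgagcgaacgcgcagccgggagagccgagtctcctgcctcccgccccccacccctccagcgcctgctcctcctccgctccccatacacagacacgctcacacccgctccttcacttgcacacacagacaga
Nr2f6, chr8:71381953-71382202, minus strand: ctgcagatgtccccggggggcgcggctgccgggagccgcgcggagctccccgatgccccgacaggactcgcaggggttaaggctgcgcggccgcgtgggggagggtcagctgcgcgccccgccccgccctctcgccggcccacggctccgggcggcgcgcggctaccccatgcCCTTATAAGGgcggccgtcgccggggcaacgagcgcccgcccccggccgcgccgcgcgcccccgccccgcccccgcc

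Each of the 3 NR4A sequences held 4 half-sites, while Nr2f6 held 0. Counted from the start site, their first bases lay at -233, -213, -69 and -40 in Nr4a1. They lay at -200, -144, -123 and -111 in Nr4a2, and at -231, -213, -205 and -147 in Nr4a3. Among 32536 mouse promoter windows of the same length, 17.9% held at least 1 half-site on either strand and 0.138% held at least 4. Those windows were not matched for G and C content. That content was 74.4% in Nr4a1, 80% in Nr4a2, 63.6% in Nr4a3 and 82.4% in Nr2f6. TGACG itself contains a CG pair, so the shares may differ among windows of like content, which was not tested. None of the 4 sequences held the full element TGACGTCA (1.56% of windows), the palindrome bound by EBF factors (TCCC and GGGA with 2 free bases between them, 0.787%), the NR4A element AAAGGTCA (1.35%) or the nuclear receptor half-site AGGTCA (14.0%, which includes the windows with the NR4A element). Half-sites of the cAMP response element include those inside full elements, and matches are strings of letters, not shown binding sites. The CArG box of Nr2f6 began at -77, and 1.48% of windows held one. Of 7 start sites of Rara, Rxra and Vdr that were searched for the same motifs, 1 of Rara held 1 cAMP half-site and 1 of Rxra held 1 NR4A element and 2 nuclear receptor half-sites.

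Each value is the log2 of a probe's signal over the 75th percentile of its array, so 0 is a bright gene and a step of 1 is a doubling; levels of different probes cannot be ranked against each other. All 12 arrays had 43379 non-control spots each, and between 54.4% and 61.4% of them were well above background on 11 arrays, against 83.2% on LPS fl/fl replicate 2. That array stood apart on the second principal component. All 9 B cell markers were well above background on every array of every group. On all 3 resting fl/fl arrays so were the 11 T cell, 8 NK cell, 9 dendritic cell and 9 platelet markers. After LPS in +/fl cells, 8 NK, 7 T, 6 dendritic, 7 platelet and 6 B cell markers fell (limma, adjusted p under 0.05). In fl/fl cells these counts were 7, 3, 3, 5 and 6. Over all genes, 27% fell in +/fl and 25.4% in fl/fl cells. Of these lists, 3 dendritic markers rose in each genotype and 1 T cell marker in fl/fl cells. The part of cells other than B cells was not tested. Resting +/fl replicate 3 and LPS +/fl replicate 1 carry the same number in their sample names and may come from 1 animal. Macrophage, monocyte and neutrophil markers differed between replicates: the median of 14 tested markers, each centred on its mean over the arrays, was 1.70 and 1.69 on resting +/fl replicates 1 and 3, and between -0.87 and 0.27 on the other 10 arrays.

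Of the 8 receptors, 6 were well above background on at least 3 arrays and entered the fit, and 5 of these were tested (all but Nr2f6). Nr3c1 was the receptor with the clearest response: it fell after LPS in both genotypes. Rxra fell after LPS in +/fl cells. The fits were made with limma over 17133 genes with Benjamini-Hochberg adjustment, and a gene is called where its adjusted p is under 0.05. In fl/fl cells LPS changed 1 of the 5, downward, where 25.4% of all genes fell and 55.6% changed either way. In +/fl cells it changed 2 of the 5, both downward, where 27% of all genes fell and 57.7% changed either way. Between the genotypes 0 of 5 differed in resting cells (8.84% of all genes; 1 of 5 at an unadjusted p under 0.05) and 0 of 5 after LPS (1.63% of all genes; 0 of 5 unadjusted). In the difference of the LPS responses, 0 of 5 passed (0.163% of all genes, or 28 genes, and 0 of 5 unadjusted). Over all 17133 genes, 4751, 3676 and 3476 were at an unadjusted p under 0.05 in these comparisons, in that order. With so few members, these shares do not set the receptors apart from other genes.

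**Figure D1:**
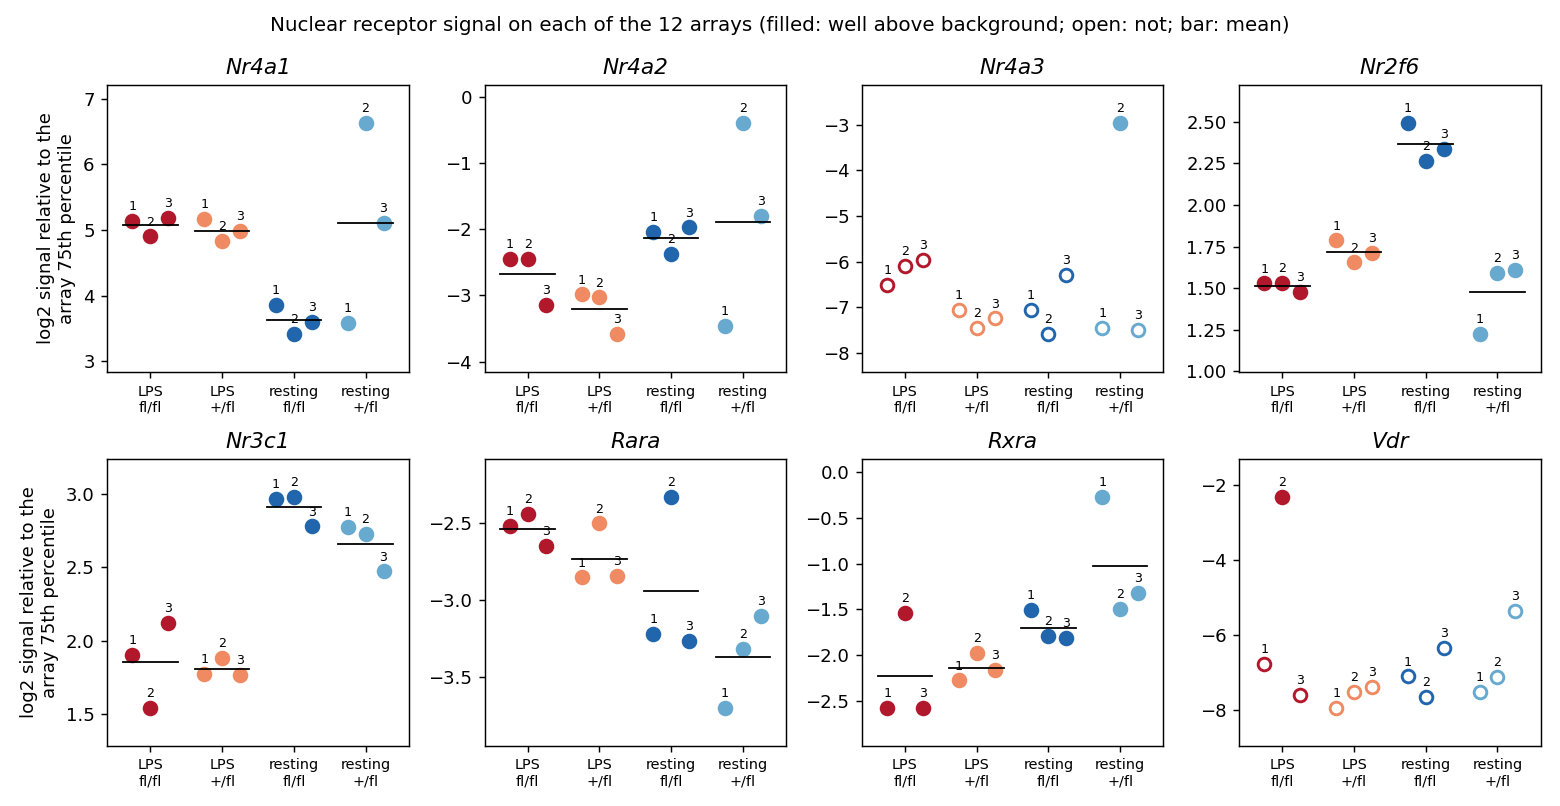
Signal of each receptor on the 12 arrays, as log2 of signal over the 75th percentile of the array (vertical axis, scaled per panel), by group from left to right; numbers are replicates, filled points are well above background, open points are not, and bars are group means for receptors in the fit. Resting +/fl replicate 2 is the highest array for Nr4a1, Nr4a2 and Nr4a3, and the 3 resting fl/fl arrays are the highest for Nr2f6.

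**Figure D2:**
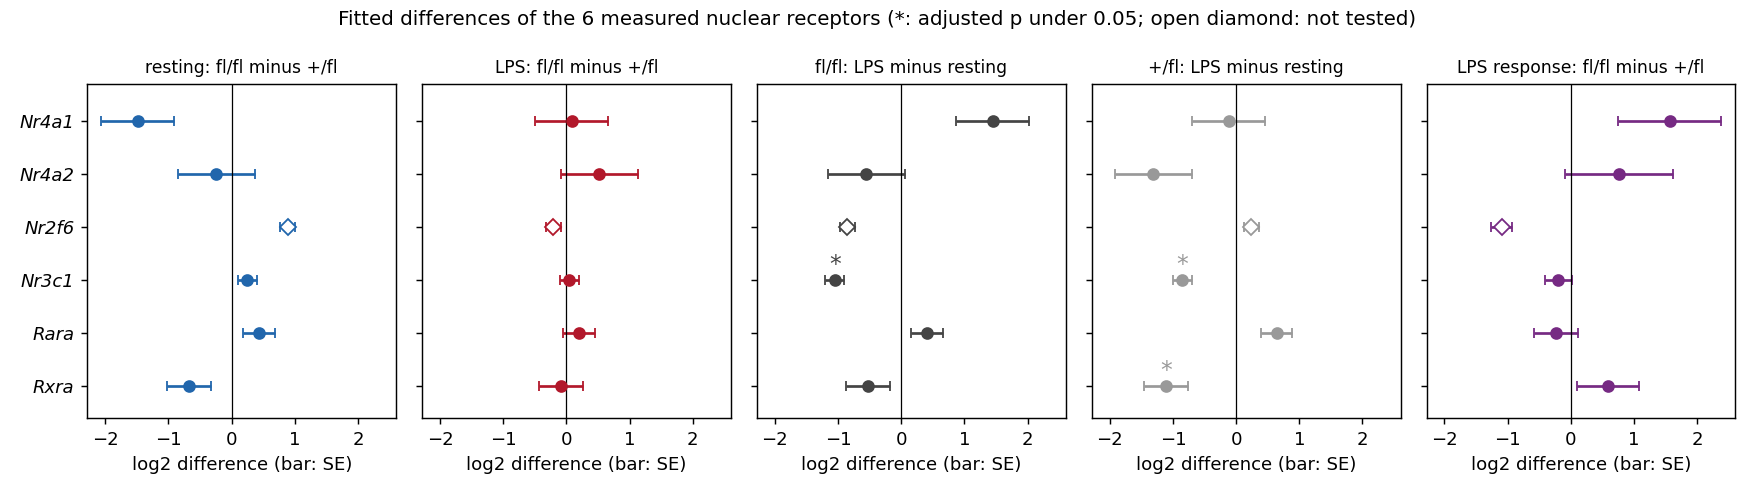
Fitted log2 differences (points) with their standard errors (bars) for the 6 receptors in the fit, 1 panel per comparison. Stars mark Nr3c1 in both LPS responses and Rxra in that of +/fl cells; Nr2f6 (open diamond) was not tested.

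Nr4a1 (Nur77; probe at chr15:101260484-101260543 on mm7) was similar on all 6 LPS arrays and on resting cells varied with the array. Its values were 5.14, 4.90 and 5.18 in LPS fl/fl, 5.17, 4.83 and 4.98 in LPS +/fl, 3.86, 3.42 and 3.61 in resting fl/fl, and 3.59, 6.63 and 5.11 in resting +/fl cells. The 6 LPS arrays lay close together, the 3 resting fl/fl arrays lay below all of them, and the resting +/fl arrays spanned nearly the whole range. In fl/fl cells the LPS arrays averaged 5.07 ± 0.15 and the resting arrays 3.63 ± 0.22 (SD, n = 3 each), with no overlap. That difference of 1.45 (SE 0.58) did not pass the threshold in the fit over 12 arrays, whose shared spread includes the resting +/fl arrays (limma, adjusted p = 0.0559). The difference stayed at 1.45 and passed in fits without resting +/fl replicate 1 or without replicate 2 (adjusted p 0.00483 in each, limma), and with only the 6 fl/fl arrays (adjusted p = 0.000853). The arrays left out there are outside this comparison, so only the spread changed. Settings where it did not pass include the replicate block (limma, adjusted p = 0.0801) and no filter on dim probes (limma, adjusted p = 0.0954). Without LPS fl/fl replicate 2 it was 1.53 and did not pass (limma, adjusted p = 0.0815). The difference was 1.76 within slide 2 and 1.41 within slide 3.

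In +/fl cells the LPS arrays of Nr4a1 averaged 4.99 ± 0.17 and the resting arrays 5.11 ± 1.52 (SD, n = 3 each), a difference of -0.12 (SE 0.58, limma, adjusted p = 0.878). Its direction depended on the array: within slides it was -1.73 on slide 1 and 1.58 on slide 2, and without resting +/fl replicate 2 it was 0.64. Between the genotypes, resting fl/fl minus resting +/fl was -1.49 (SE 0.58, 95% interval -2.77 to -0.20, limma, adjusted p = 0.13), and the groups overlapped. Within slides that difference was -2.78, -0.17 and -1.51. It passed without resting +/fl replicate 1, the lowest of the 3 (-2.25, limma, adjusted p = 0.0219), and was -0.73 without replicate 2, the highest (limma, adjusted p = 0.235). After LPS the genotypes differed by 0.08 (SE 0.58, interval -1.21 to 1.37), and the LPS responses differed by 1.57 (SE 0.82, limma, adjusted p = 0.304).

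Nr4a2 (Nurr1; chr2:57108976-57109035 on mm7) was well above background on all 12 arrays. It read -2.45, -2.45 and -3.14 in LPS fl/fl, -2.98, -3.03 and -3.58 in LPS +/fl, -2.04, -2.38 and -1.97 in resting fl/fl, and -3.46, -0.39 and -1.80 in resting +/fl cells. Again the resting +/fl arrays covered nearly the full range, with replicate 2 highest and replicate 1 near the lowest. No comparison passed. LPS minus resting was -0.55 (SE 0.61) in fl/fl cells, without overlap, and -1.31 (SE 0.61, limma, adjusted p = 0.0905) in +/fl cells, with overlap. Without resting +/fl replicate 1 the +/fl response passed (-2.10, limma, adjusted p = 0.00188), and without replicate 2 it was -0.57 (limma, adjusted p = 0.317). Resting fl/fl minus resting +/fl was -0.24 (interval -1.60 to 1.11) and turned to 0.50 without resting +/fl replicate 2.

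Nr4a3 (Nor1), the third of the family, was well above background on 1 of 12 arrays, again resting +/fl replicate 2. It read -2.96 there, and between -7.58 and -5.96 on the other 11 arrays, where its value is only a bound. It did not enter the fit.

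The NR4A genes were thus highest, among the 6 resting arrays, on 1 array: resting +/fl replicate 2 was the highest of the 6 for 3 of 3. Immediate-early genes, the class the NR4A genes belong to, were set beside them. That array was also the highest of the 6 for 13 of 18 listed immediate-early genes (72.2%), against 15.1% of all 17133 genes. Of these 18, Fosl1 and Fosl2 were well above background on no resting array, so their order there has no meaning; among the other 16 the array was highest for 12, against 2488 of the 16610 genes above background on at least 1 resting array. Relative to the mean of the other two resting +/fl arrays, the 18 genes had a median difference of 0.93, and 8 of them were at least 1 higher, against a median of 0.05 and 2.73% of all genes. B cell markers were highest on this array in 5 of 9, and macrophage, monocyte and neutrophil markers in 0 of 14. The lowest of the 3 resting +/fl arrays for Nr4a1 and Nr4a2 was replicate 1, where the median of the 18 genes, centred on their means over the arrays, was -0.82, against 1.24 on replicate 2 and 0.74 on replicate 3. On resting fl/fl replicates 1 to 3 that median was 0.56, 0.155 and 0.41. Replicate 1 thus lowers the mean of replicates 1 and 3 used above: Fos read -1.43, 3.83 and 3.37 on replicates 1, 2 and 3. Resting fl/fl arrays read 3.86, 3.42 and 3.61 for Nr4a1, near 3.59 on resting +/fl replicate 1. For Fos they read 2.73, 1.68 and 2.37, above that replicate, and for Atf3 -4.11, -3.71 and -3.82, below its -2.49.

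**Figure D3:**
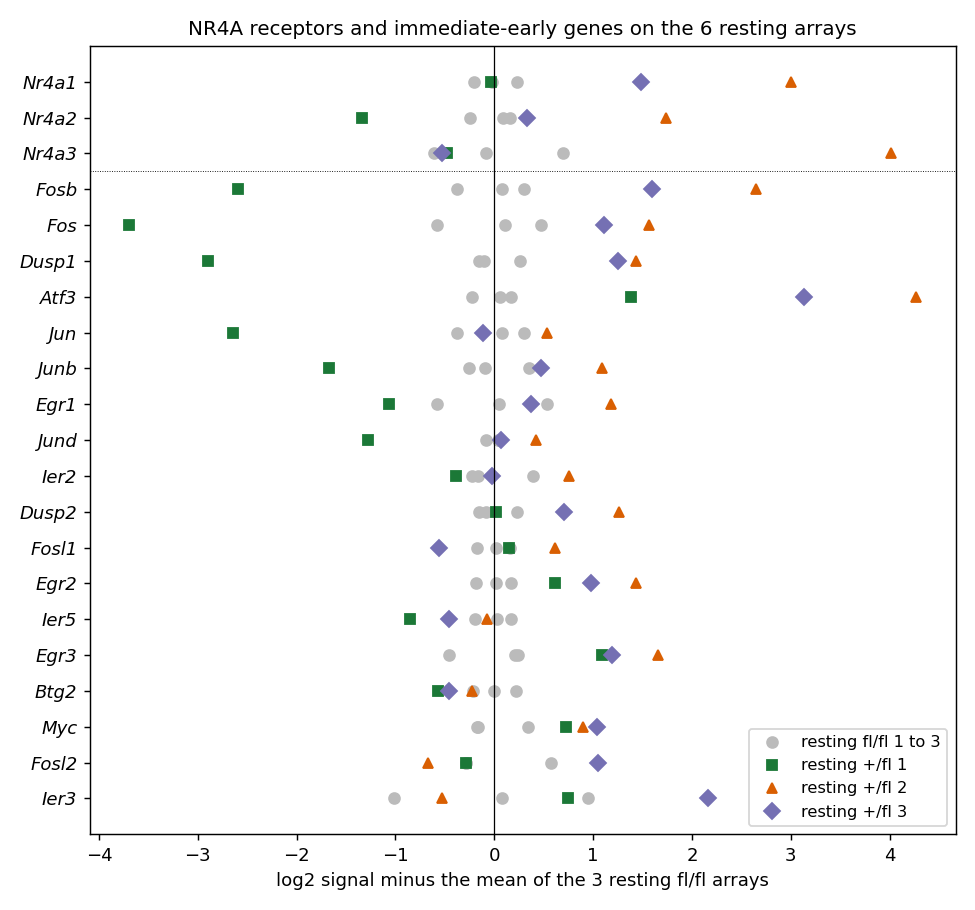
The 3 NR4A genes (above the dotted line) and 18 immediate-early genes on the 6 resting arrays, as log2 signal minus the mean of the 3 resting fl/fl arrays (horizontal axis). Orange triangles (resting +/fl replicate 2) lie furthest right for the NR4A genes and for 13 of the 18 others; for Nr4a3 only that array is well above background, and for Fosl1 and Fosl2 none is.

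Between the genotypes in resting cells, 3 of the 18 immediate-early genes were lower in fl/fl cells and 0 were higher (4.18% and 4.66% of all genes). Their median difference was -0.09, against 0.05 over all genes. The 3 were Egr2, a zinc-finger factor (-1.01, adjusted p = 0.0157), Atf3, a stress-induced bZIP factor (-2.93, adjusted p = 0.0198), and Myc, a driver of growth (-0.89, limma, adjusted p = 0.0168). The count was 6 without resting +/fl replicate 1, 1 without replicate 3 or without resting fl/fl replicate 1, and 1 with no filter on dim probes. LPS moved the class in both directions: in fl/fl cells 6 rose and 9 fell (30.2% and 25.4% of all genes), and in +/fl cells 5 rose and 10 fell (30.7% and 27% of all genes). Among the risers, Myc gained 3.37 (SE 0.17) in fl/fl and 2.85 in +/fl cells. Fosl1, a Fos-family protein, was not well above background on any resting array, and after LPS was at least 6.34-fold higher in fl/fl and at least 8.52-fold higher in +/fl cells. Egr2 fell by 1.39 in fl/fl and by 2.04 in +/fl cells.

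Nr2f6 (probe at chr8:69841245-69841304 on mm7) was the member chosen for its pattern, and what follows describes that pattern. Signals were 1.53, 1.53 and 1.48 in LPS fl/fl, 1.79, 1.66 and 1.71 in LPS +/fl, 2.49, 2.27 and 2.34 in resting fl/fl, and 1.23, 1.59 and 1.61 in resting +/fl cells. The 3 resting fl/fl arrays were above all 9 other arrays, and those 9 lay between 1.23 and 1.79. In order of their means, resting fl/fl cells stood at 2.37 ± 0.12, LPS +/fl at 1.72 ± 0.07, LPS fl/fl at 1.51 ± 0.03 and resting +/fl at 1.48 ± 0.22 (SD, n = 3 each); the last pair overlapped. Resting fl/fl minus resting +/fl was 0.89 (SE 0.12, 1.85-fold) and LPS fl/fl minus LPS +/fl was -0.20. The LPS response was -0.85 in fl/fl and 0.24 in +/fl cells, so it differed by -1.10 (SE 0.17). The resting difference was 0.90, 1.04 and 0.73 within the 3 slides, and between 0.77 and 0.96 as each array was left out. The difference of the responses lay between -1.16 and -0.97 in those fits. With arrays scaled by their median in place of the 75th percentile it was -1.64, a setting that moved the median of all genes by -0.54. Nr2f6 was chosen by these same values, so their steadiness across slides and fits is no independent support for the pattern. The genes whose pattern over the 12 arrays was nearest to Nr2f6, by root mean square difference after centring, were Dyrk1a (0.0987), a kinase, Setd1b (0.123), a histone methyltransferase, and Tbc1d25 (0.133), against a median of 0.654 over all genes. A gene with no variation would lie 0.372 from Nr2f6.

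Nr3c1, the glucocorticoid receptor gene on chromosome 18, fell after LPS to about the same level in both genotypes. Its brightest probe read 1.90, 1.54 and 2.12 in LPS fl/fl, 1.77, 1.88 and 1.77 in LPS +/fl, 2.97, 2.98 and 2.78 in resting fl/fl, and 2.78, 2.73 and 2.47 in resting +/fl cells. Every LPS array lay below every resting array. In fl/fl cells it fell by 1.05 (SE 0.15, 2.08-fold, limma, adjusted p = 0.0002), and in +/fl cells it fell by 0.85 (SE 0.15, 1.80-fold, limma, adjusted p = 0.000761). Here fewer cells of a type and less RNA per cell cannot be told apart. The responses differed by -0.20 (interval -0.68 to 0.28, limma, adjusted p = 0.614). Within slides the response was -0.86 and -1.06 in fl/fl cells and -0.90 and -1.005 in +/fl cells. Over the fits that left out each array it stayed between -1.19 and -0.90 in fl/fl and between -0.94 and -0.79 in +/fl cells.

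The 3 other Nr3c1 probes had responses of the same sign. They gave -0.86, -0.75 and -0.50 in fl/fl cells, of which the last did not pass over all probes (limma, adjusted p = 0.0789), and -0.87, -0.76 and -0.89 in +/fl cells, all past the threshold. Scaling by the median left the +/fl response of the brightest probe at -0.61 with an adjusted p of 0.229 (limma). Between the genotypes in resting cells, fl/fl minus +/fl was 0.25 (interval -0.09 to 0.59, limma, adjusted p = 0.314) with groups that did not overlap, and the difference was positive within each slide (0.24, 0.20 and 0.31). After LPS the genotypes differed by 0.05 (interval -0.29 to 0.39).

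Cytosolic chaperones and co-chaperones, among them those that hold the unliganded glucocorticoid receptor, moved the other way. Of 11 listed, 10 rose after LPS in fl/fl cells and the same 10 in +/fl cells, where 30.2% and 30.7% of all genes rose. Their median responses were 1.39 in fl/fl and 1.54 in +/fl cells, against 0.08 and -0.02 over all genes. Hsp90aa1, an inducible cytosolic Hsp90, gained 1.68 in fl/fl and 1.54 in +/fl cells. Hsp90ab1, the constitutive form, gained 1.69 (SE 0.10) in fl/fl and 1.19 in +/fl cells. Stip1, which links Hsp70 to Hsp90, gained 1.71 and 2.29, and Hspa4, a nucleotide exchange factor of the Hsp70 group, gained 1.39 and 1.89, fl/fl before +/fl in each. The one that did not pass was Fkbp5, an Hsp90 co-chaperone that is itself a glucocorticoid target, at 0.24 in fl/fl and 0.44 in +/fl cells. These counts were the same without LPS fl/fl replicate 2 and with slide as a fixed block.

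Genes that glucocorticoids induce in lymphoid cells moved in both directions. Of 12 measured, 3 rose and 5 fell after LPS in fl/fl cells (30.2% and 25.4% of all genes), and 3 rose and 6 fell in +/fl cells (30.7% and 27% of all genes). Their median responses were -0.19 in fl/fl and -0.58 in +/fl cells. Tsc22d3 (GILZ) read 0.96, 0.73 and 1.32 in LPS fl/fl against 4.98, 4.28 and 4.40 in resting fl/fl cells, and 1.20, 1.05 and 1.20 in LPS +/fl against 3.31, 4.23 and 4.21 in resting +/fl cells. It was thus among the strongest fallers of the list, by 3.55 (SE 0.27) in fl/fl and by 2.77 in +/fl cells. Sgk1, a kinase, fell by 3.96 (SE 0.33) in fl/fl and by 3.01 in +/fl cells. Klf13, a zinc-finger factor, fell by 2.72 in fl/fl and by 2.22 in +/fl cells. Nfkbia, the inhibitor of NF-kB and also a target of NF-kB itself, rose by 0.73 in fl/fl and by 1.43 in +/fl cells. All adjusted p-values of these 4 genes were at most 0.0028 (limma). In resting cells, fl/fl was higher than +/fl for 3 of the 12 and lower for 0 (4.66% and 4.18% of all genes): Sgk1 (1.37), Nfkbia (0.79) and Cdkn1c, a cell cycle inhibitor (0.60). Without resting +/fl replicate 1 that count was 1 higher and 2 lower.

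**Figure D4:**
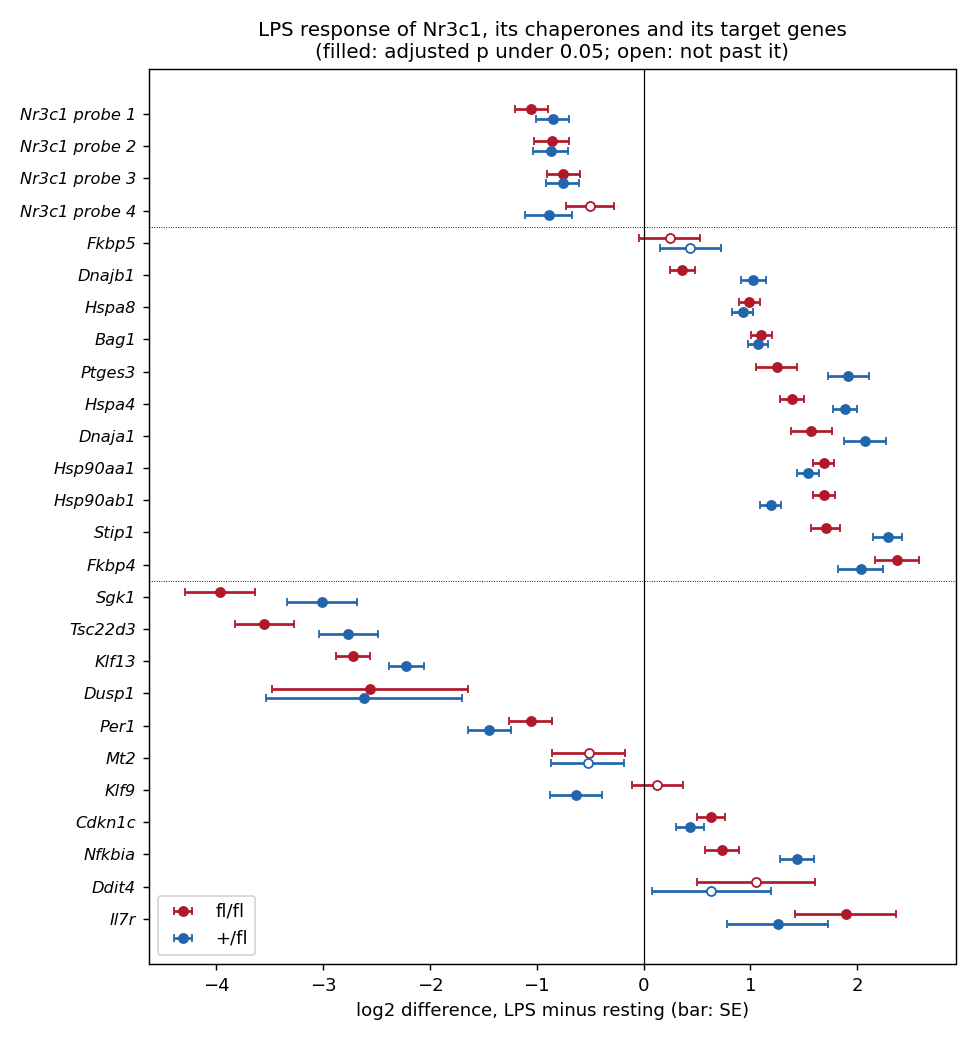
LPS minus resting log2 differences (points, with standard errors) in fl/fl (red) and +/fl cells (blue) for the 4 Nr3c1 probes (top block), 11 chaperones (middle) and the glucocorticoid target genes apart from Fkbp5 (bottom). Filled points passed an adjusted p of 0.05; all Nr3c1 points lie left of 0 and all chaperone points right of it.

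Rara (chr11:99079584-99079643 on mm7) passed in none of the comparisons. Its values were -2.52, -2.44 and -2.65 in LPS fl/fl, -2.86, -2.51 and -2.85 in LPS +/fl, -3.22, -2.33 and -3.27 in resting fl/fl, and -3.70, -3.32 and -3.10 in resting +/fl cells. In fl/fl cells 1 resting array, replicate 2, was above all 3 LPS arrays, while in +/fl cells every LPS array was above every resting array. LPS minus resting was 0.40 (SE 0.25, limma, adjusted p = 0.202) in fl/fl cells, and 0.64 (SE 0.25) in +/fl cells, just outside the threshold (limma, adjusted p = 0.05002). Leaving out resting fl/fl replicate 2 gave 0.71 in fl/fl cells, past the threshold (limma, adjusted p = 0.0107). The +/fl value stayed at 0.64 there, with an adjusted p of 0.00883. Resting fl/fl minus resting +/fl was 0.43 (interval -0.13 to 0.99), and after LPS the difference was 0.20 (interval -0.36 to 0.76).

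Rxra (chr2:27770202-27770261 on mm7) fell after LPS in +/fl cells. It read -2.58, -1.54 and -2.57 in LPS fl/fl, -2.28, -1.97 and -2.16 in LPS +/fl, -1.50, -1.79 and -1.81 in resting fl/fl, and -0.27, -1.49 and -1.32 in resting +/fl cells. The single highest value was resting +/fl replicate 1, and the LPS fl/fl array that reached into the resting range was replicate 2, the array that stood apart. The difference in fl/fl cells was -0.53 (SE 0.35, limma, adjusted p = 0.227) with overlap, and -0.87 without LPS fl/fl replicate 2 (limma, adjusted p = 0.0414). In +/fl cells Rxra fell by 1.11 (SE 0.35, 2.16-fold, limma, adjusted p = 0.0193), with no overlap. Without resting +/fl replicate 1 that response was -0.73 (adjusted p = 0.0615), and without LPS +/fl replicate 1 it was -1.04 (limma, adjusted p = 0.0572). With slide as a fixed block it was -1.10 (limma, adjusted p = 0.0522). Within slides it was -0.58 on slide 1 and -2.01 on slide 2. The responses differed by 0.58 (SE 0.49, limma, adjusted p = 0.522), so no difference between the genotypes was shown.

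Resting fl/fl minus resting +/fl was -0.68 for Rxra (interval -1.45 to 0.10, limma, adjusted p = 0.238), without overlap, and -0.01, -1.52 and -0.49 within the slides. RXRs are also expressed by macrophages. Resting +/fl replicate 1, the highest Rxra array, was 1 of the 2 arrays with high macrophage, monocyte and neutrophil markers. The other, replicate 3, read -1.32 for Rxra, near the -1.49 of replicate 2, where these markers were not high. The summed signal of the 15 listed markers ran from 63.3 to 122 in LPS fl/fl, from 38.1 to 124 in LPS +/fl, from 24.4 to 45.2 in resting fl/fl and from 35.8 to 163 in resting +/fl arrays, in multiples of the array's 75th percentile. Mpeg1 and S100a9 weigh most in the LPS sums, with log2 means of 5.42 and 5.21 in LPS fl/fl cells. Lyz2 came next there, at 2.27, so these sums say little about the other markers. After LPS in fl/fl cells, of the 14 markers tested, 5 rose (S100a8, S100a9, Ngp, Cd14 and Mpeg1), against 30.2% of all genes. Another 4 fell (Csf1r, Fcgr1, Cd163 and Mrc1), against 25.4% of all genes. In +/fl cells 0 rose and 7 fell (30.7% and 27% of all genes). In the difference of those responses 0 of the 14 passed (0.163% of all genes). Of the 15 markers, 10 were well above background on all 3 arrays in LPS fl/fl and 10 in LPS +/fl cells. It was 14 in resting fl/fl and 14 in resting +/fl cells. Mrc1 was above background on no LPS array of either genotype, Fcgr1 and Cd163 on none of LPS +/fl, and Elane on 1 of 12 arrays in all. The part of these cells in the Rxra values was not tested. A second, dimmer Rxra probe was above background on 4 of 12 arrays and passed in no comparison, with -0.23 in fl/fl and -0.09 in +/fl cells after LPS.

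Vdr (chr15:97858813-97858872 on mm7) was well above background on 1 of 12 arrays, LPS fl/fl replicate 2, where it read -2.31. The other 11 arrays read between -7.95 and -5.36, where the value is a bound, and Vdr did not enter the fit. That array had the largest share of spots above background.

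Genes that make or use the ligands of these receptors were read from fixed lists. In vitamin D metabolism 4 of 7 genes were measured. Cyp27a1, a sterol 27-hydroxylase that can also hydroxylate vitamin D, read -4.58, -5.08 and -4.48 in LPS fl/fl against -0.987, -0.324 and -0.996 in resting fl/fl cells, and fell by 3.95 (SE 0.22, limma, adjusted p = 4.11e-07). In +/fl cells it was above background on no LPS array and at least 28.4-fold lower after LPS. Of 14 macrophage, monocyte and neutrophil markers, 7 also fell and 0 rose in +/fl cells, and 4 fell and 5 rose in fl/fl cells. The part of these cells in the Cyp27a1 values was not tested. Resting +/fl cells read -0.53, -0.72 and -0.63, and the resting genotypes differed by -0.14 (limma, adjusted p = 0.729). After LPS, Cyp27a1 was at least 1.67-fold higher in fl/fl than in +/fl cells (limma, adjusted p = 0.0389), the 1 of the 4 genes called there (1.63% of all genes), and it was not called without resting +/fl replicate 1, with slide as a fixed block, with the replicate block or with no filter on dim probes. Cyp27b1, the 1-alpha-hydroxylase that makes the active hormone, read between -3.88 and -3.26 on all arrays, with LPS responses of 0.01 in fl/fl and 0.09 in +/fl cells. Cyp2r1, a 25-hydroxylase, had responses of -0.12 in fl/fl cells, not past the threshold, and 0.74 in +/fl cells, where it rose, and the difference between those responses did not pass (limma, adjusted p = 0.204). Cubn, a receptor that takes up vitamin D bound to its carrier, rose by 1.85 in fl/fl and by 1.48 in +/fl cells.

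Of 10 measured genes of retinoid metabolism and retinoic acid response, 5 rose and 2 fell after LPS in fl/fl cells (30.2% and 25.4% of all genes), and 4 rose and 2 fell in +/fl cells (30.7% and 27% of all genes). Between the genotypes, 0 of 10 passed in resting cells (8.84% of all genes) and 0 of 10 after LPS (1.63% of all genes). At an unadjusted p under 0.05 (limma) were 2 of 10 in resting cells, against 4751 of all 17133 genes. After LPS it was 0 of 10, against 3676 of all genes. Dhrs3, which reduces retinal back to retinol, rose by 3.71 (SE 0.57) in fl/fl and by 2.65 in +/fl cells. Hic1, a repressor induced by retinoic acid, rose by 2.26 and 2.34, and Rdh11, a retinal reductase, by 0.62 and 1.32, fl/fl before +/fl in each. Tgm2, a transglutaminase and classical target of retinoic acid receptors, fell in both genotypes, with responses of -2.62 in fl/fl and -4.10 in +/fl cells. Tgm2 is also abundant in macrophages, and its highest value, 1.71, was on resting +/fl replicate 1. It read 0.25 on replicate 2 and 0.27 on replicate 3, the other array with high macrophage, monocyte and neutrophil markers, and the part of these cells was not tested.

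Of 41 other nuclear receptors, 23 were measured. After LPS, in fl/fl cells 4 rose and 6 fell (30.2% and 25.4% of all genes), and in +/fl cells 3 rose and 8 fell (30.7% and 27% of all genes). Nr6a1 (GCNF), an orphan receptor known from germ cells, rose the same way in both: it read -1.21, -1.43 and -1.42 in LPS fl/fl against -4.34, -4.31 and -4.17 in resting fl/fl cells, a rise of 2.92 (SE 0.17, limma, adjusted p = 4.4e-07), and it rose by 2.88 in +/fl cells. Nr1h3 (the oxysterol receptor LXR alpha) fell by 2.70 (SE 0.39) in fl/fl and by 3.82 in +/fl cells. Its resting +/fl values were 0.37, -0.99 and -1.29, with replicate 1 highest as for Rxra. Replicate 3, the other array with high macrophage, monocyte and neutrophil markers, was the lowest of them, and the part of these cells was not tested. Esr1, the estrogen receptor, fell by 2.31 in fl/fl cells, where 1 of 3 LPS arrays was above background, and was at least 4.75-fold lower after LPS in +/fl cells. Esrra, an orphan regulator of mitochondrial genes, fell by 1.06 in fl/fl and by 0.51 in +/fl cells.

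Between the genotypes, 0 of the 23 differed after LPS (1.63% of all genes). There 4 were at an unadjusted p under 0.05 (limma), against 3676 of all 17133 genes. In resting cells 1 of the 23 differed (8.84% of all genes). The one was Thra, a thyroid hormone receptor, which read 1.33, 0.93 and 0.94 in resting fl/fl against 0.06, 0.75 and 0.22 in resting +/fl cells, higher by 0.72 (limma, adjusted p = 0.0412). It did not pass without resting +/fl replicate 1. In the difference of the LPS responses, 0 of the 23 passed (0.163% of all genes). At an unadjusted p under 0.05 (limma) were 5 of the 23, against 3476 of all 17133 genes.

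Corepressors and coactivators, the proteins that receptors recruit, were all measured (18 of 18). In resting cells 6 were higher in fl/fl than in +/fl cells and 0 were lower (4.66% and 4.18% of all genes), with a median difference of 0.26 against 0.05 over all genes. They were Ep300 (0.93) and Crebbp (0.71), both histone acetyltransferases, Ncoa2 (0.62) and Ncoa3 (0.37), both p160 coactivators, Nrip1 (0.60), a corepressor, and Ncor1 (0.45), the nuclear receptor corepressor. The count was 3 with slide as a fixed block, 3 with the replicate block, 1 with no filter on dim probes and 0 with scaling by the median. As each array was left out it ran from 1 to 5, with 1 both without resting +/fl replicate 1 and without resting fl/fl replicate 1. Over all genes, calls also fell in number, to 593 and 499 in those fits, against 1514 with all arrays. After LPS, 1 of 18 was lower in fl/fl cells (1.63% of all genes differed either way), the NCoR-complex subunit Tbl1xr1 (-0.55, limma, adjusted p = 0.0257), and 0 were without LPS fl/fl replicate 2. With LPS, 4 rose and 8 fell in fl/fl cells (30.2% and 25.4% of all genes), and 5 rose and 6 fell in +/fl cells (30.7% and 27% of all genes). Kat2b, an acetyltransferase, fell by 2.44 in fl/fl and by 2.56 in +/fl cells, and Carm1, an arginine methyltransferase, rose by 1.42 and 1.76 in the same order.

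Across the 12 arrays, the genes nearest to Nr3c1 in pattern were 4932438A13Rik (root mean square difference 0.0966), Sp3 (0.104) and Dguok (0.111), against a median of 0.747 over all genes. Nearest to Nr4a1 were Igf2bp3 (0.310), Mir22hg (0.447) and Fam83d (0.449), with a median of 1.02 over all genes. For Nr4a2 they were Lrrc3b (0.356), Pla2g3 (0.361) and Junb (0.371), a member of the immediate-early list, with a median of 0.985. The nearest genes lie below such a median by construction. A gene with no variation would lie 0.506 from Nr3c1, 0.888 from Nr4a1 and 0.839 from Nr4a2.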

How the data were processed

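Per the file headers, the authors' deposited scanner files hold intensity, namely the Cy3 signal per spot after background subtraction, from 1-colour Agilent 4x44k arrays, read with Feature Extraction 9.5.3.1 (9.1 per the submitters' processing notes). The authors' deposited value table holds intensity on a linear scale with 1 common set of values in all columns. Its normalization method is not stated in these sources. It served as an alternative. The files' spot flags, deposited as 0 or 1 (other marks), gave the outliers and the spots above background.

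Flagged spots were left out, which removed 87 of 41174 probes. From each log2 signal the array's own 75th percentile was subtracted. A probe was kept if 3 or more of the 12 arrays had it well above background (25677 probes, 17133 genes), and a gene's brightest probe was used. Older probe names were updated by accession or symbol with a RefSeq gene table. The fit of 4 group means used limma 3.58.1 (R 4.3.3) and moderated variances. Bounds ("at least") use the lowest signal above background where 1 group had none above it. The script was tested on simulated data. The number of arrays limits the precision.

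The members, gene lists and tests were chosen with earlier results of these data known. All 8 members are named, and of each list the 4 genes with the smallest p; others named were past the threshold in a count, or chosen after their values were seen (Fkbp5, Thra, Cdkn1c, the cofactors). Genes of like pattern were to be named for members whose group means span 2 or more, which only the dim Vdr met, so they are given for measured members. Replicate numbers did not pair samples: correlations of same-numbered samples ran from -0.145 to 0.126. Nr4a3 and Vdr had been planned as tested members and failed the filter. Alternatives were other background corrections, scalings, filters, blocks, thresholds and arrays left out. The count over immediate-early genes above background on resting arrays was added after seeing the data.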

Additional observations from a re-analysis of the deposited data

How the results depend on the processing

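Receptors called among 5 tested, under alternatives. In resting cells the genotype count was 0 and became 1 (Nr4a1) with resting +/fl replicates 1 and 3 left out, where only resting +/fl replicate 2 remained and was assumed to vary like the other groups, and ran from 0 to 1 as each array was left out. The LPS count in fl/fl cells was 1 and became 2 with normexp, the filter on all 12 arrays, slide as a fixed block, only the 6 arrays of the comparison, and resting +/fl replicates 1 and 3 left out; it was 3 with array weights and ran from 1 to 2 as each array was left out. In +/fl cells it was 2 and became 1 with scaling by the median, slide as a fixed block, the 2 arrays that share a sample number left out, the mean over probes and an adjusted p of 0.01. It became 3 with normexp (Nr4a2 added), with quantile normalization, the deposited table, the filter on all 12 arrays, slide as a random block or only the 6 arrays (Rara added in each), and with resting +/fl replicates 1 and 3 left out (Nr4a1, Nr4a2 and Nr3c1). It ran from 1 to 3 as each array was left out. The interaction count was 0 and became 1 (Nr4a1, 3.09, limma, adjusted p = 0.017) with resting +/fl replicates 1 and 3 left out, where again 1 array remained; without replicate 2 it was 0.81 (limma, adjusted p = 0.363). For these changes, beyond the fewer arrays or probes each setting uses, the cause was not tested.

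Signs turned in values that had not passed. After LPS, fl/fl minus +/fl was -0.44 for Nr4a1, -0.0047 for Nr4a2, -0.47 for Nr3c1 and -0.32 for Rara with scaling by the median, which moved the median of all genes by -0.52. Rara was -0.14 with quantile normalization and -0.15 in the deposited table. As each array was left out, Nr4a1 ran from -0.00053 to 0.17, Nr3c1 from -0.085 to 0.20 and Rxra from -0.44 to 0.080. The LPS response of Nr4a1 in +/fl cells was 0.12 with scaling by the median and ran from -0.88 to 0.64 as each array was left out. In resting cells Nr4a2 ran from -1.03 to 0.50. Rara in fl/fl cells was -0.070 with normexp. The interaction of Nr3c1 was 0.049 with the mean over probes, and that of Rara ran from -0.40 to 0.067. Of the recomputed values of single receptors, 779 were rated the same, 27 newly passed the threshold, 8 no longer passed and 16 changed sign. For tested receptors, the same meant an unchanged sign and side of the threshold. For the untested Nr2f6 it meant a move smaller than the spread, and 4 of its values moved by more.

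With the replicate block, receptors called were 0, 0, 1, 3 and 0 in the resting genotype comparison, the LPS genotype comparison, the LPS responses of fl/fl and of +/fl cells and the interaction; the one added was Rara in +/fl cells (0.64, limma, adjusted p = 0.0338). Over all genes it called 684 in the resting genotype comparison, against 1514 without it. Only 4 of 12 samples correlated best with their own number.

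Nr4a3 and Vdr were too dim to measure, and 18 of 41 other nuclear receptors were not measured for the same reason. LPS dose and time and the gate of each sample are unknown here.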
